A study of Arabidopsis thaliana with 2 samples.

Results

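The B-box group II genes of Arabidopsis thaliana are the 7 genes BBX7 (AT3G07650), BBX8 (AT5G48250), BBX9 (AT4G15250), BBX10 (AT3G21880), BBX11 (AT2G47890), BBX12 (AT2G33500) and BBX13 (AT1G28050). Binding regions of the clock protein PRR5 were counted at a gene where the middle of the region fell inside that gene or no more than 3 kb beyond one of its ends. By this rule 4 of the 7 genes had a region, BBX7, BBX8, BBX9 and BBX10, and together they had 8 of the 8983 regions in the deposited list. BBX11, BBX12 and BBX13 had none and are treated as unbound. Of all 27444 protein-coding genes, 46.7% had a region by the same rule, so the count of 4 is close to the background.

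The regions came from chromatin immunoprecipitation followed by sequencing (ChIP-seq). In this assay DNA fixed to a protein is pulled down with an antibody, sequenced and set against input DNA that was not pulled down. The plants carried the prr5 mutation and the transgene PRR5pro:FLAG-PRR5-GFP, in which the PRR5 promoter drives PRR5 with a FLAG tag and a green fluorescent protein (GFP) tag. The ChIP library was made with anti-GFP and the input library from plants of the same description, so both groups share the mutation and the transgene. Whole plants were grown for 18 days in 12 h of light and 12 h of dark and fixed 10 h after the light came on. There was 1 library in each group, hence no replicate check, and intervals of reads given below are exact 95% Poisson intervals that cover counting error only. Signal from whole plants does not tell in which cells the protein was bound.

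PRR5 (PSEUDO-RESPONSE REGULATOR 5) is a transcriptional repressor of the circadian clock whose protein accumulates late in the day. B-box proteins carry zinc-binding B-box domains at the amino terminus, and those of group II also have a CCT domain at the carboxy terminus, a domain they share with CONSTANS (CO) and with the PRR proteins. Members of group II are known for effects on flowering time, light responses and cold tolerance. BBX7, also called COL9, delays flowering when overexpressed, with lower CO and FT expression. BBX7 and BBX8 act together in cold tolerance, downstream of HY5 and the photoreceptor CRY2. BBX10, also called COL12, delays flowering when overexpressed and is a target of the COP1 and SPA ubiquitin ligase. BBX11 acts in seedling light responses. The gene table used here names 6 of the 7 loci as B-box genes and lists AT2G47890 by its locus alone.

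Over the whole list the median region had 194 reads, with quartiles of 71 and 616 and a highest value of 26570, and was 150 bp long. The authors gave each region a false discovery rate of the ChIP relative to the input, in percent. Ranks below run from 1, the lowest rate, with ties ordered by reads. Positions are those of the list on TAIR9. Gene names follow RefSeq on TAIR10.1, and distances from a region's middle to a gene end set these side by side. As background, the TAIR10 release kept the chromosome sequences of TAIR9. The table has no strand, so a gene's start and its end are not told apart.

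BBX8 was the only group II gene with a region centred inside it. That region ran from 19563660 to 19563798 on chromosome 5 and held 993 reads (932 to 1057), more than 83.7% of all regions. Its middle lay 103 bp inside the end of the gene that faces AT5G48270. Its false discovery rate was 1.63e-24%, rank 1208 of 8983. At 720 reads per 100 bp it was the densest of the 8 regions, where the median of the list was 110 reads per 100 bp. AT5G48270 lay 0.7 kb from it and AT5G48240 lay 2.4 kb from it.

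The other regions within 3 kb of BBX8 were far weaker and were centred in or next to its neighbours. One of 475 bp, from 19565066 to 19565541, was centred in AT5G48270, 1.5 kb from BBX8, and held 150 reads (127 to 176) with a false discovery rate of 0.513%, rank 4810. AT5G48280 lay 1.8 kb from it. The other, from 19559080 to 19559229, held 105 reads (86 to 127) at 1.15%, rank 5087. It lay beside AT5G48240, 2.2 kb from BBX8, and was the member region farthest from its gene. Both had fewer reads than the list median of 194. With 3 regions BBX8 stood among the 3.22% of protein-coding genes that had 3 or more within 3 kb.

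BBX7 had 1 region, and it lay beside the gene. It ran from 2441289 to 2441388 on chromosome 3, 0.2 kb outside the end of BBX7 that faces AT3G07640, which was 1.4 kb away. BBX7 was its nearest gene. With 99 bp it was the shortest of the 8 regions, and it held 271 reads (240 to 305), more than 57.7% of all regions. Its false discovery rate was 2.81e-11%, rank 2233, just inside the 2245 best-ranked regions of the list. That rank was good for its reads: of the 443 regions with 244 to 298 reads, 10.4% ranked better. On the far side of BBX7 no region of the list used here followed for 117.2 kb from centre to centre, up to one with 1654 reads (1575 to 1736) from 2558046 to 2559028. That stretch wholly contains 37 protein-coding genes, BBX7 among them. The median spacing of neighbouring regions was 6.8 kb. Counting this stretch itself, 50 of 8978 spacings were as long or longer, and 5 held as many genes or more. Of the spacings, 0.546% were longer than this stretch.

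**Figure D1:**
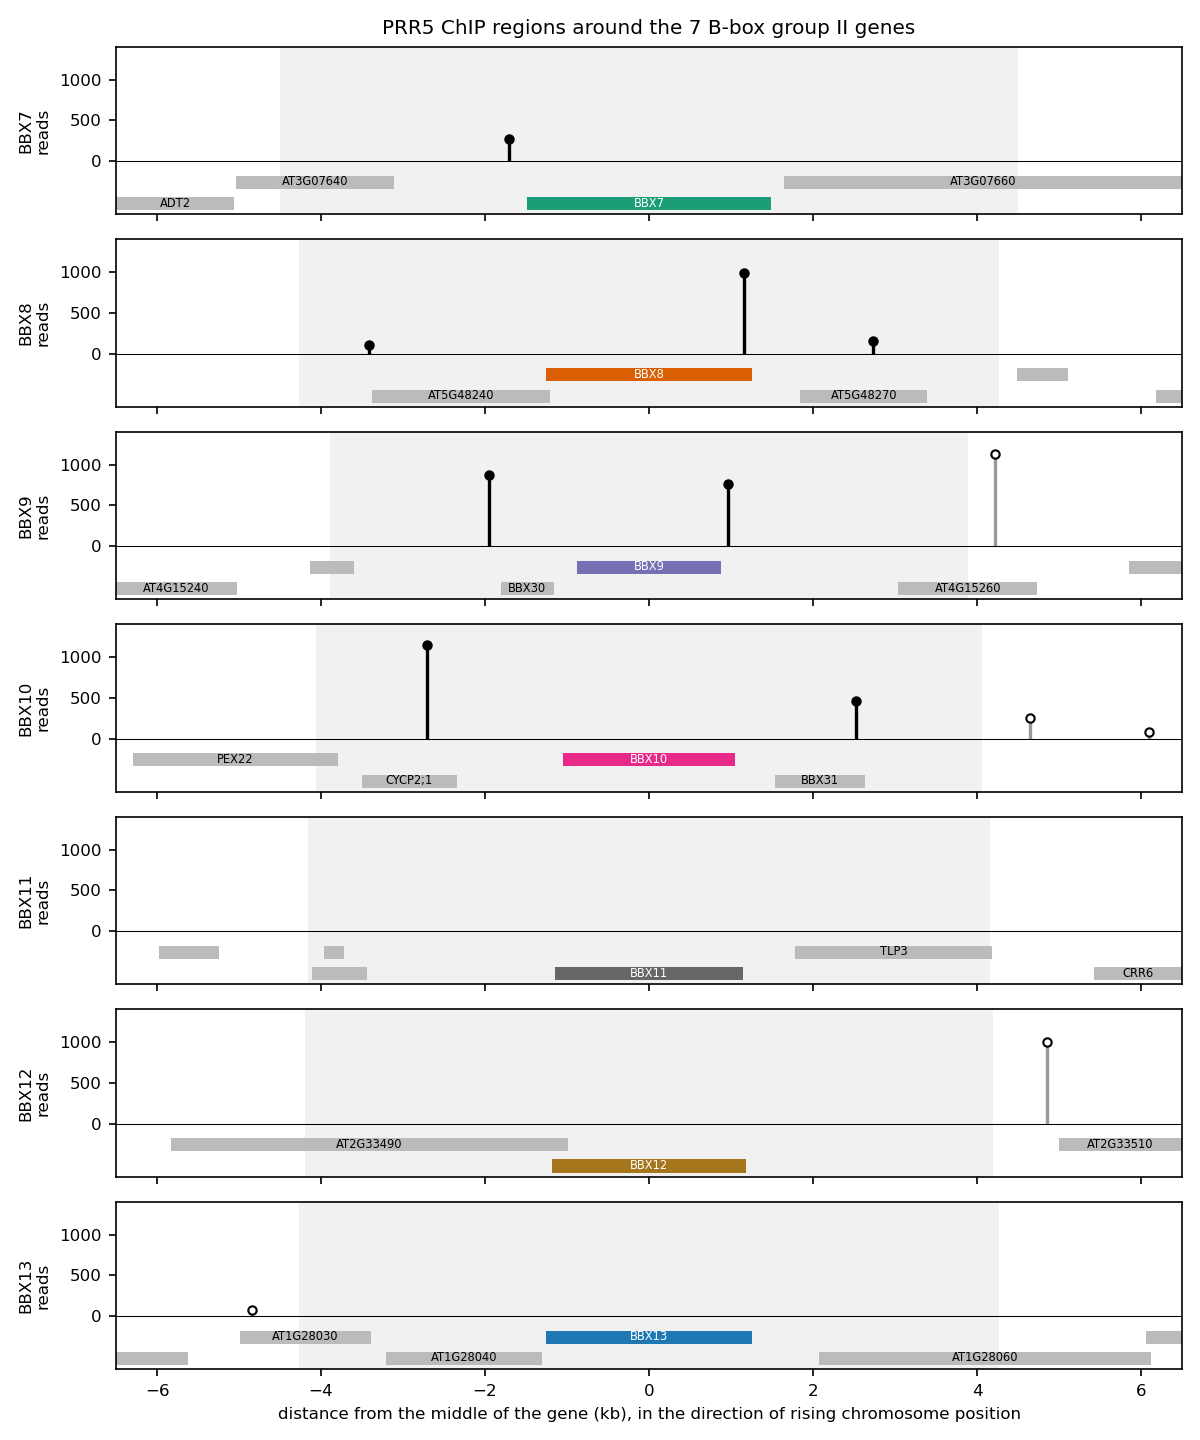
Regions around each group II gene. The horizontal axis is the distance in kb from the middle of the gene, stem height is the number of reads in a region, the coloured bar is the group II gene, grey bars are other protein-coding genes, and the shaded band reaches 3 kb beyond the gene ends; filled circles lie within 3 kb and open circles farther out. BBX8 holds the only stem over its own bar, at 993 reads, while the band of BBX11, BBX12 and BBX13 is empty.

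BBX9 and BBX10 each stand next to a B-box gene of group V, and share regions with it, both regions of BBX9 with BBX30 and 1 of the 2 regions of BBX10 with BBX31. Across the 32 B-box genes there were 2 pairs with no other protein-coding gene starting between them. These were BBX30 (AT4G15248) with BBX9 on chromosome 4 and BBX10 with BBX31 (AT3G21890) on chromosome 3. B-box genes close together but parted by another such gene were not counted. BBX30 and BBX31 encode small single B-box proteins, also called miP1b and miP1a respectively, that bind CO and the corepressor TOPLESS and delay flowering when overexpressed. ChIP-seq places the protein on DNA and does not tell which gene of a pair a region acts on.

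The pair of BBX30 and BBX9 was flanked by a region on either side. The region from 8708609 to 8708772 held 871 reads (814 to 931) with a false discovery rate of 1.80e-36%. Its rank of 786 was the best of the 8, but it lay 0.2 kb from BBX30 and 1.1 kb from BBX9. AT4G15245 lay 1.6 kb from it. The region from 8711538 to 8711679 held 765 reads (712 to 821) at 5.99e-27%, rank 1100. It lay 0.1 kb outside BBX9, which was the nearest protein-coding gene, and was centred in the long noncoding RNA gene AT4G06300. BBX30 and AT4G15260 both lay 2.1 kb from it. The read counts of these regions were close, with intervals that overlap, and together they gave BBX9 1636 reads within 3 kb, more than 84.2% of the genes that had any region. No region was centred between BBX30 and BBX9 or in either of them.

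BBX10 had regions on both sides, and each was centred in a neighbouring gene. The region from 7709765 to 7709879 on chromosome 3 lay inside BBX31, 1.5 kb from BBX10, and held 467 reads (426 to 511) with a false discovery rate of 2.79e-13%, rank 2023. On the other side, the region from 7704503 to 7704675 lay inside CYCP2;1 (AT3G21870), a P-type cyclin gene, 1.7 kb from BBX10. It was also within 3 kb of PEX22 (AT3G21865), a peroxisome biogenesis gene, at 1.1 kb. That region held 1154 reads (1088 to 1223), the most of the 8, but ranked only 2492 with a false discovery rate of 1.81e-09%. Of the 308 regions with 1039 to 1269 reads, 85.1% ranked better. Reads and rank therefore order the BBX10 regions in opposite ways; the cause was not tested. BBX10 was the nearest gene of neither, and with the nearest gene only it had no region.

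Over the 8 regions, 3 had their group II gene as the nearest protein-coding gene, 1 each at BBX7, BBX8 and BBX9, and 5 lay nearer to another gene. With each region given to its nearest gene only, 3 of the 7 genes had one, as did 25.7% of all protein-coding genes. By distance, 1 was centred inside the group II gene, 2 within 1 kb of it and 5 from 1 to 3 kb away. The authors' rate was at most 5% in all 8, as in 64.4% of the whole list, and 5 were among the 2245 best-ranked regions. Reads ran from 105 to 1154 with a median of 616, and 6 of the 8 lay above the list median. At 4 of the 7 genes, the same 4 that had any region, at least 1 of the 2245 best-ranked regions lay within 3 kb. The share of all protein-coding genes, with or without a region, was 15.5%. With regions at 5% or below the same 4 genes had one, and the share of all genes was 34.2%. The gap between 4 of 7 and these shares describes this pair of libraries and was not tested.

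**Figure D2:**
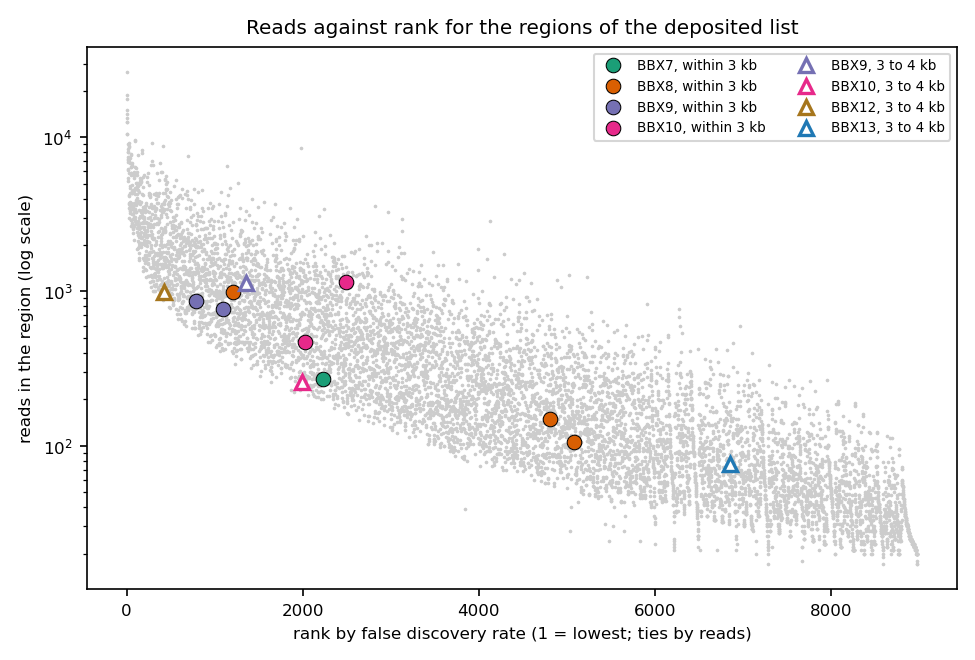
Reads in each region (vertical, log scale) against its rank by false discovery rate (horizontal) for the 8983 regions in grey. Circles are the 8 regions within 3 kb of BBX7, BBX8, BBX9 or BBX10 and triangles are regions 3 to 4 kb from a group II gene; the BBX10 region with 1154 reads sits high for its rank and the BBX7 region with 271 reads low.

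Among the genes that had a region within 3 kb, the median best rank was 3575 and the median of the summed reads was 407. All 4 group II genes with a region had a better best rank than that median: 12.3% of such genes ranked better than BBX9, 18.5% better than BBX8, 30.2% better than BBX10 and 32.9% better than BBX7. Summed reads were 1621 at BBX10 and 1248 at BBX8, both above the median, and 271 at BBX7, below it.

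Forward and reverse reads were about equal in each of the 8 regions. Forward reads made up between 47.6% (271 reads at BBX7, 95% Clopper-Pearson interval 41.5 to 53.7) and 50.8% (1154 reads at BBX10, 47.9 to 53.7). A two-sided exact binomial test, adjusted by Benjamini-Hochberg over the whole list, called 0 of the 8 unequal, against 84 of 8983 regions (0.935%). The lowest unadjusted exact p of the 8 was 0.247, for 366 forward and 399 reverse reads beside BBX9, so 0 of 8 were under 0.05 before adjustment too. Over the whole list 862 of 8983 regions were under 0.05 before adjustment, so a count of 0 in 8 does not set these regions apart. After adjustment the lowest exact p of the 8 was 0.83.

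The 3 genes without a region differed in how far the nearest one lay. At BBX12 it was 3.7 kb away, from 14193870 to 14194019 on chromosome 2, with 996 reads (935 to 1060). Its false discovery rate of 8.91e-59% and rank of 420 were better than those of all 8 regions within 3 kb, and it lay 0.2 kb from AT2G33510. At BBX13 the nearest region was weak. It ran from 9771854 to 9772032 on chromosome 1, 3.6 kb away inside AT1G28030, and held 76 reads (60 to 95) with a false discovery rate of 18.0%, rank 6855. About as many protein-coding genes had a nearer region as not, 51.5% for BBX12 and 50.9% for BBX13.

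BBX11 stood in a long stretch without regions in the list used here. Whether the list is complete in this stretch and in the one beside BBX7 was not tested. The absence of a region at BBX11, and the region count and reads at BBX7, therefore hold for the list as used. The nearest, from 19583153 to 19583401 on chromosome 2, was 24.7 kb away and held 179 reads (154 to 207) with a false discovery rate of 3.24%, rank 5553. On the other side the next was 39.0 kb away, with 607 reads (560 to 657). The space between them, 66.0 kb, wholly contains 24 protein-coding genes, BBX11 among them, and 1.65% of the spacings in the list were longer. Of all protein-coding genes 95.8% had a nearer region than BBX11, and 20.9% had none within 10 kb. The other 6 group II genes had between 1 and 5 regions within 10 kb, where the median gene had 2.

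**Figure D3:**
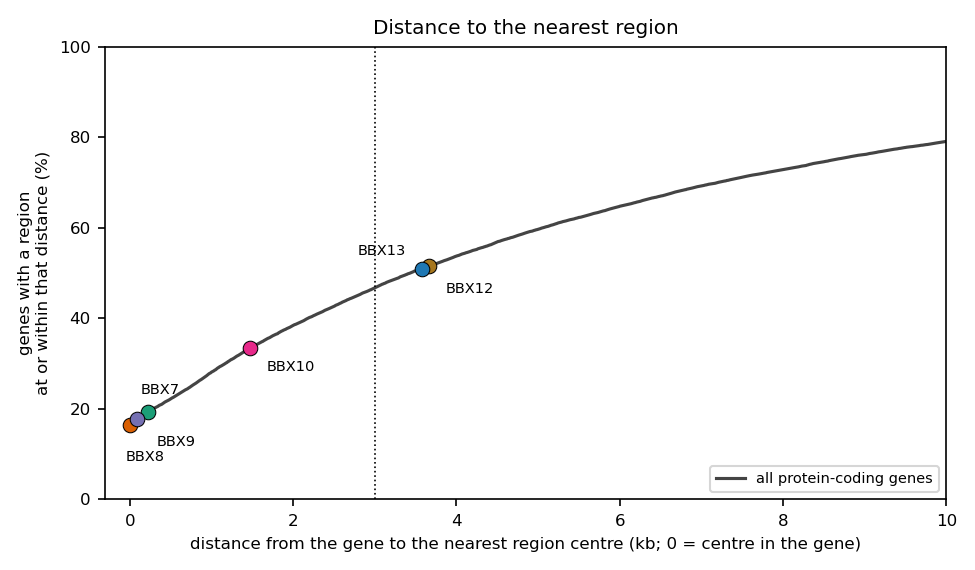
Share of all 27444 protein-coding genes (vertical, percent) with a region centre at or within a given distance (horizontal, kb; 0 is inside the gene), as a line. Circles put the group II genes on that line at the distance of their nearest region and the dotted line marks 3 kb; BBX11 lies at 24.7 kb, beyond the axis.

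The 3 kb limit fell between regions at 2.2 kb and at 3.3 kb from a group II gene, with none in between. The farthest region counted was the one of 105 reads at 2.2 kb from BBX8. Just outside were the regions of BBX13 and BBX12 above. At BBX9 a further region stood 3.3 kb away, inside AT4G15260, from 8714793 to 8714942 with 1129 reads (1064 to 1197) at rank 1359. At BBX10 one stood 3.6 kb away and 2.0 kb from BBX31, from 7711875 to 7712023 with 259 reads (228 to 293) at rank 1988.

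Set beside the rest of the B-box family, group II had a region at 4 of 7 genes, group I (BBX1 to BBX6, with CO) at 5 of 6, group III at 2 of 4, group IV at 6 of 8 and group V at 6 of 7, where 46.7% of all protein-coding genes had a region. Within 1 kb these counts were 3, 5, 2, 5 and 5, where 28.0% of all protein-coding genes had a region. Regions centred inside the gene were found at 1 gene of group II, 4 of group I, 1 of group III, 3 of group IV and 2 of group V, and at 16.3% of all protein-coding genes. At a rate of at most 5%, the counts within 3 kb were 4, 5, 2, 6 and 5 in the same order. Of all protein-coding genes, 34.2% had such a region. With the 2245 best-ranked regions the counts were 4, 5, 2, 4 and 5, where the share was 15.5%. In group V, the only region of BBX26 within 3 kb had a rate of 87.2%, at rank 8709 with 71 reads (55 to 90). The groups were not tested against each other. The members were grouped by protein domains and not by these data. Members and lists were nonetheless chosen with earlier results of these data known. Group V shares 3 regions with group II through BBX30 and BBX31.

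The regions of group II lay in the middle and lower part of the family's range. Of the 19 genes of the other groups that had a region, 8 had a better best rank than BBX9, 12 a better one than BBX8, and 16 a better one than BBX10 and than BBX7. By the reads of the fullest region, 12 of the 19 exceeded BBX10, BBX8 and BBX9, and 17 exceeded BBX7. The fullest region of BBX10 was the one centred in CYCP2;1. The best-ranked genes of the other groups were BBX6 (AT5G57660, a CO-like gene) at rank 59 with 2758 reads (2.6 kb away), BBX14 (AT1G68520) at rank 1146 with 3556 reads, BBX24 (AT1G06040, a repressor of light responses) at rank 127 with 2320 reads and BBX28 (AT4G27310, which represses light responses through HY5) at rank 5 with 14201 reads. The best rank within group II, 786 at BBX9, came from the region that lies nearer to BBX30.

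**Figure D4:**
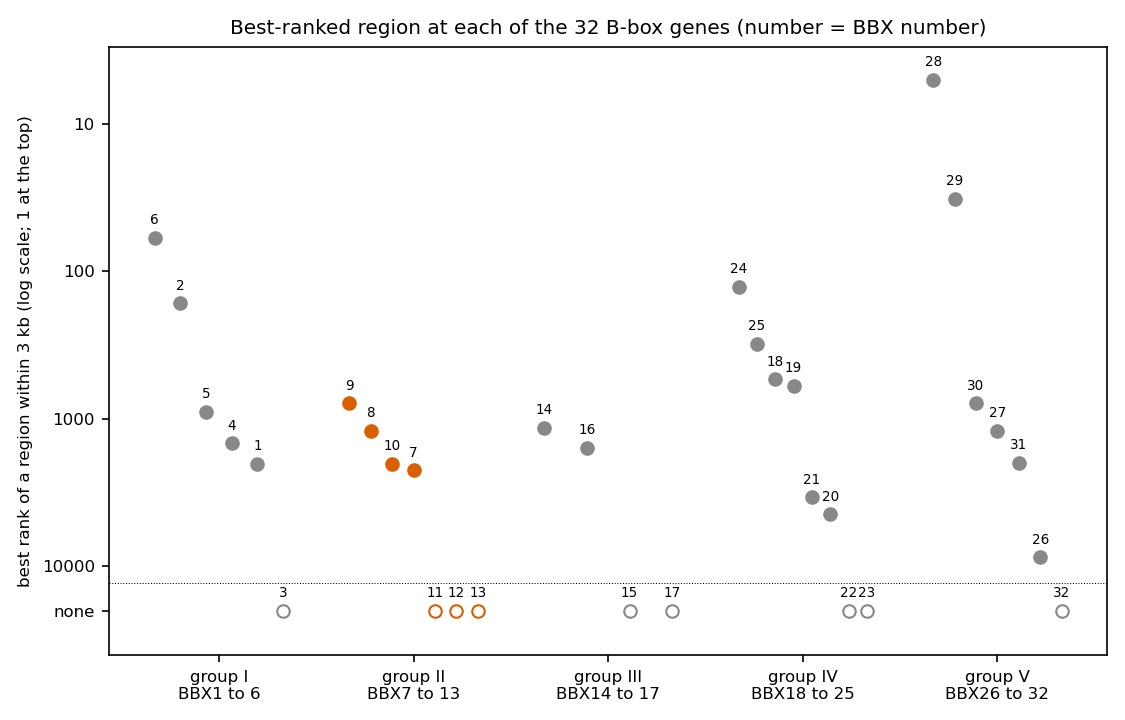
Best rank of a region within 3 kb (vertical, log scale, rank 1 toward the top) for each of the 32 B-box genes, by structural group; numbers are BBX numbers, group II is in orange, and open circles have no region. Group II spans ranks 786 to 2233, and the 7 genes include 3 with none.

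A list of 16 other flowering and light genes was looked at in the same way. It covers the path from CO to FT, without CO itself, and the COP1 to HY5 light pathway, and includes FLC and TPL. Like the members, it was chosen with earlier results of these data known. Of the 16 genes, 12 had a region within 3 kb and 9 had one at a rate of at most 5%. At 7 of the 16 a region was among the 2245 best-ranked. The shares of all protein-coding genes by these rules were 46.7%, 34.2% and 15.5%. Among the 12, the best regions of TSF, FLC and FKF1 had rates of 6.63%, 18.0% and 100%. The rule of 3 kb alone sets no limit on the rate. GI (AT1G22770), which acts upstream of CO, ranked best at 6. The rates of GI and of BBX28, at rank 5, were both 0, so reads set their order. HY5, the bZIP factor upstream of BBX7 and BBX8 in the cold, had its best region at rank 233, closer to the top than any region of group II. COP1, SPA2, SPA3 and CRY2 had no region within 3 kb. Their relatives SPA1, SPA4 and CRY1 did, with best ranks of 559, 1198 and 2108. CO had its best region inside the gene, with 718 reads (666 to 772) at rank 2020, near the ranks of BBX10 and BBX7. The best region of FT, the florigen gene, held 103 reads at rank 3821, below the best region of each of the 4 group II genes.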

How the data were processed

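The deposited list gives regions that the authors called in 1 ChIP over 1 input library. Reads were mapped to TAIR9 per the file headers and the submitters' processing notes; the sources used here name no aligner, caller or filter. Per the file headers each region has whole-number read counts (all, forward, reverse; the library is not named). The authors gave each region a false discovery rate of ChIP relative to input, deposited in percent. The deposited counts are not normalised, and library depth is unknown beyond the 5112270 reads in regions. PCR copies are not independent, so intervals cover counting error only.

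Region centres were set beside 27444 protein-coding genes of the TAIR10.1 RefSeq table (chromosomes 1 to 5). All 48 listed loci matched. Intervals and exact binomial tests used scipy 1.17.1; assignment and strand test were tested on simulated data. Threshold 0.05. The members and lists were chosen with earlier results of these data known. Named genes are the 7 members, genes within 3 kb of their regions, and the best-ranked of each other list. HY5, CO, FT, COP1, SPA2, SPA3, CRY2 and genes beyond 3 kb were named after their values were seen. So were SPA1, SPA4, CRY1, TSF, FLC, FKF1, TPL and BBX26. No genome, promoter or protein sequence was used here, so planned motif and protein comparisons were not run. Alternatives covered distance, overlap, nearest gene, false discovery rate, merging, gene set and ranking.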

Additional observations from a re-analysis of the deposited data

How the results depend on the processing

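BBX7, BBX8 and BBX9 had a region within 1 kb, within 500 bp and with the nearest gene only, with 3 regions in all under each of these. Only BBX8 (1 gene, 1 region) was left when the centre had to lie in the gene. The same 4 genes as in the report came out with any overlap, with merging, with rates of at most 5% and with the 2245 best-ranked regions, where 5 regions were left. At 5 kb and 10 kb, chosen after seeing the data, 6 genes had a region, with 18 regions at 10 kb. The share of all protein-coding genes was 15.5% with the 2245 best-ranked regions, 22.1% at 500 bp, 59.6% at 5 kb and 79.1% at 10 kb. Ranked by reads, the best ranks were 3795 for BBX7, 1465 for BBX8, 1678 for BBX9 and 1238 for BBX10; by reads per bp they were 2680, 1190, 1548 and 1277. Either way BBX10 or BBX8, not BBX9, came first, since the ranking measure itself changed. At BBX10 the best region changed too, to the one centred in CYCP2;1, 1.7 kb away. By reads per bp the best region of BBX9 also changed, to the one 0.1 kb from it. The strand result stayed at 0 of 8 when adjusted over regions at 5% or less. No paired analysis was possible because each group had 1 library. With 1 ChIP and 1 input, the spread between plants is unknown, and a gene without a region may have signal below what the caller reported.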
